A study of Mus musculus with 6 samples.

Results

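The regions described here are stretches of mouse chromosomes that carried H3K9me3 (trimethylated lysine 9 of histone H3) in every library, but over fewer bases after knockdown of the histone demethylase PHF8. Chromatin immunoprecipitation with sequencing (ChIP-seq) located H3K9me3 in neural stem cells (NSCs) cultured from the cerebral cortex of fetal C57BL/6J mice. Cells were infected with a lentivirus that expressed either an shRNA of scrambled sequence (shCTR, the control) or one directed at PHF8 (shPHF8). Both groups were grown with EGF and FGF, and the methods describe puromycin selection for such vectors. There were 2 ChIP libraries per condition, 4 in all. An input library of each condition was not used here, and the sources do not say whether libraries 1 and 2 came from separate cultures. Peak lists hold no expression values, so neither the knockdown nor the identity of the cells could be checked in them.

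Peaks of the 4 libraries on chromosomes 1 to 19 were pooled and merged into 70705 regions. Of these, 26200 were under 20 kb and held a peak of all 4 libraries, and they are called shared regions. A shared region was called shrinking when the lower covered bp of the 2 shCTR libraries was at least 1.5 times the higher covered bp of the 2 shPHF8 libraries, where covered bp is the number of bases of the region inside a library's peaks. The rule selected 168 shrinking regions, 0.641% of the shared regions. The mirror rule, with shCTR and shPHF8 exchanged, selected 2850 spreading regions, or 10.9%. With covered bp scaled to the same total in every library, the numbers were 737 shrinking and 976 spreading regions. Without a size limit on the difference, both shCTR libraries covered more bp than both shPHF8 libraries in 1320 shared regions (5.04%), and the opposite held in 10105 (38.6%). Covered bp selected the regions, so all values of covered bp below are a description and carry no test. The number selected also depended on every library: leaving out 1 library at a time gave 477 to 1629 shrinking regions, the highest without shPHF8 replicate 1.

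H3K9me3 is a hallmark of heterochromatin, where it is bound by HP1 proteins and keeps repeats, silenced gene families and imprinted alleles inactive. It is laid down by methyltransferases such as SUV39H1, SUV39H2 and SETDB1. PHF8 is a Jumonji demethylase that acts on H3K9me2, H3K9me1 and H4K20me1, and H3K9me2 is the substrate from which H3K9me3 is made.

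The DNA of 5 shrinking regions shows what was kept and what was given up. These are the 3 with the most covered bp lost within 1 kb of a protein-coding start site and the 2 with the most lost among the remainder. Loss is the lower shCTR minus the higher shPHF8 covered bp. For each region the first line is the middle 300 bases of the longest stretch that peaks of all 4 libraries covered. The second line is the middle 300 bases of the longest stretch that both shCTR libraries and neither shPHF8 library covered. Sequences are the plus strand of GRCm38.p6 (mm10), 5′ to 3′, and capitals mark CpG dinucleotides.

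The region at Lpo (lactoperoxidase, a secreted antimicrobial peroxidase) lies at chr11:87814001-87827000, and both of its windows overlapped an exon of the gene.
Lpo, kept (chr11:87817551-87817850): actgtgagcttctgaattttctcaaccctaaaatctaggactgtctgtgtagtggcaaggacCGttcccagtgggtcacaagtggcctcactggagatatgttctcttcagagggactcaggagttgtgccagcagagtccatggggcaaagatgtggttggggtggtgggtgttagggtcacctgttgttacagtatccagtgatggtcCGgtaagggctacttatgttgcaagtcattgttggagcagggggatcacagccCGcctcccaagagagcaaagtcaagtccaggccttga
Lpo, given up (chr11:87822051-87822350): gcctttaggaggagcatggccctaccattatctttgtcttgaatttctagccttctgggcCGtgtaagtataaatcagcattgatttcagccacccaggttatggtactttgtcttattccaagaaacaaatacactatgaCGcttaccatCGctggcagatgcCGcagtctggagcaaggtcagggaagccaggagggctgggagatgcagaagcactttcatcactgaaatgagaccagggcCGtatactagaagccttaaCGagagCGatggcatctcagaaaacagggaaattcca

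The region upstream of B9d1, a protein of the transition zone of primary cilia, lies at chr11:61495201-61505400, and both windows lay outside protein-coding genes.
B9d1, kept (chr11:61497851-61498150): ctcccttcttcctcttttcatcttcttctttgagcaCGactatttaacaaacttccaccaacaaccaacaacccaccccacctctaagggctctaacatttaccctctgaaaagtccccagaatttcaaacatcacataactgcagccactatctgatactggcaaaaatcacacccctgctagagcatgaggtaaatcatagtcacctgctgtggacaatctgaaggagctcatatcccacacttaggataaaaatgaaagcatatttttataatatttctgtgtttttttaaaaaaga
B9d1, given up (chr11:61502051-61502350): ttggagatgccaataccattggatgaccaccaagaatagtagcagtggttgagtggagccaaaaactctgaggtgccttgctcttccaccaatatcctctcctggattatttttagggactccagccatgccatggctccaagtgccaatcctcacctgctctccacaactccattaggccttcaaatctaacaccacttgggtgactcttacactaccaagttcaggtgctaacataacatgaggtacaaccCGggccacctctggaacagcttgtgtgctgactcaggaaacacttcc

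The region at Ccdc60 lies at chr5:116281801-116299400, with the kept window upstream of the gene and the given-up window in an intron.
Ccdc60, kept (chr5:116297151-116297450): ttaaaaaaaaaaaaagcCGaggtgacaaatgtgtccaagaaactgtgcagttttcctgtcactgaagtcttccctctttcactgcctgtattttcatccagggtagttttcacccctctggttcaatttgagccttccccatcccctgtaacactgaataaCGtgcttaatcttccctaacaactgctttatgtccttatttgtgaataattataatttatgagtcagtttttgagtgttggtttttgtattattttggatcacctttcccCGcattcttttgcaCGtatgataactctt
Ccdc60, given up (chr5:116284451-116284750): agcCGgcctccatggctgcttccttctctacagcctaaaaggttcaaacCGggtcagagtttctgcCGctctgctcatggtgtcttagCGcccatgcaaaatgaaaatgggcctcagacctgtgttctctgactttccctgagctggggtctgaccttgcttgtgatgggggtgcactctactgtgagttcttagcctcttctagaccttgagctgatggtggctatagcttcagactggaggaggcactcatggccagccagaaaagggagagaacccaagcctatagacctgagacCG

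The region with the largest loss lies between genes at chr14:71313401-71330200. Its nearest protein-coding start site, that of the neurturin co-receptor gene Gfra2, is 371515 bp away.
distal to Gfra2, kept (chr14:71327851-71328150): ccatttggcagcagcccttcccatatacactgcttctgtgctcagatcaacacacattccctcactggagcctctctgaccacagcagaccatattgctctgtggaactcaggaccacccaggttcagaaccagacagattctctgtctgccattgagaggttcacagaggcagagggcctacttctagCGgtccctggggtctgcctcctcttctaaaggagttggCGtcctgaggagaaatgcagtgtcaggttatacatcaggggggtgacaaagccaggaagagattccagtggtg
distal to Gfra2, given up (chr14:71319751-71320050): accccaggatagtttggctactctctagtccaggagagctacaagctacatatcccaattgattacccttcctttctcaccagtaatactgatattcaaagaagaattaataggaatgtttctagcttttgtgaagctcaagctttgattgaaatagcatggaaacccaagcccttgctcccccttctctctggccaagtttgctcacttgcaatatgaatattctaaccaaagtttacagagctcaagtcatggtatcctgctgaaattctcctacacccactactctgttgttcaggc

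The region inside Tmem131l lies at chr3:83983001-83992400, and both windows were intronic.
Tmem131l, kept (chr3:83990551-83990850): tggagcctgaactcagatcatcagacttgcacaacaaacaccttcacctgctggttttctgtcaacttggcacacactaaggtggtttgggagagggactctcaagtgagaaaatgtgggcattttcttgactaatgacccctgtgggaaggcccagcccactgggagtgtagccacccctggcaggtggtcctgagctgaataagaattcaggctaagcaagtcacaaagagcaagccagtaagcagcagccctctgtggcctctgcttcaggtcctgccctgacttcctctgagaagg
Tmem131l, given up (chr3:83988151-83988450): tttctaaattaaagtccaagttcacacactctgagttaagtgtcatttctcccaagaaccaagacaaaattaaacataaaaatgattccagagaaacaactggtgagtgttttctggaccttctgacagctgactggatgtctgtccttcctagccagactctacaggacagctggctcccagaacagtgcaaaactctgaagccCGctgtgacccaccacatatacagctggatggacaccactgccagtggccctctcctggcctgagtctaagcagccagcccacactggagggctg

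In these 10 windows the number of CpG dinucleotides was 3 in the kept and 7 in the given-up window at Lpo, and 1 and 1 at B9d1. It was 4 and 5 at Ccdc60, 2 and 0 distal to Gfra2, and 0 and 1 at Tmem131l. The given-up window thus held more CpGs at 3 of the 5 regions, the same number at 1 and fewer at 1.

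The 168 regions went against the direction of the libraries they came from. Over chromosomes 1 to 19, all peaks together covered 156 and 159 Mb in shCTR replicates 1 and 2, and 219 and 197 Mb in shPHF8 replicates 1 and 2. Peak numbers were 53039, 53852, 44205 and 55344 in the same order. In the shrinking regions, peaks summed to 965 and 975 kb in shCTR and to 456 and 449 kb in shPHF8. The median shrinking region had 5400 covered bp in both shCTR libraries and 2400 in both shPHF8 libraries. Over all shared regions the medians were 3000 bp for each shCTR library, and 4400 and 3600 bp for the shPHF8 libraries. The lists give no read depth or score, and the read totals that the study gives per library were not used here, so the part of depth and of the peak threshold in these values was not tested.

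**Figure D1:**
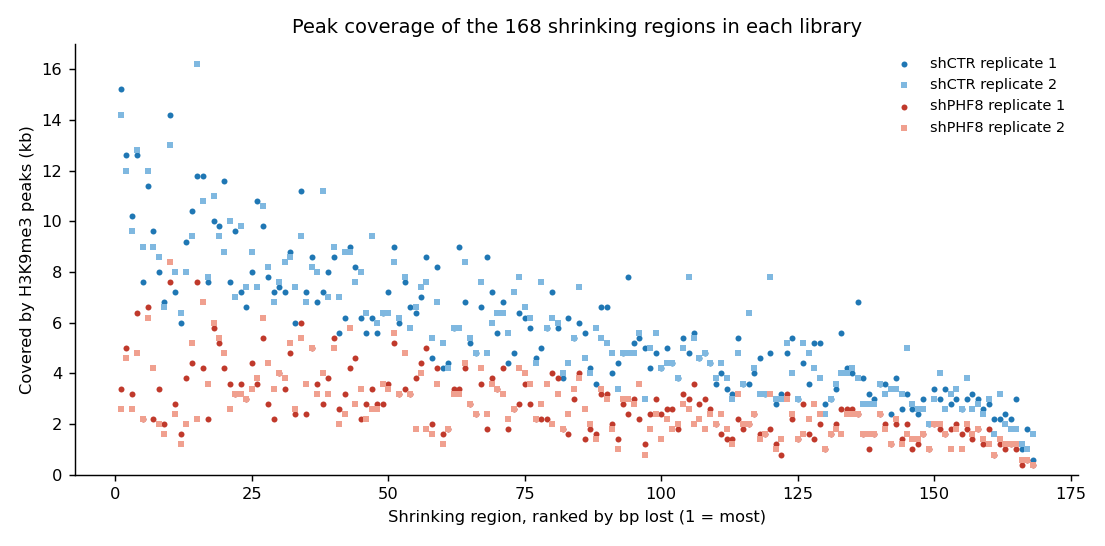
Each shrinking region is a column, ranked by bp lost, and each point is the length covered by H3K9me3 peaks (kb) in 1 library. By the rule, both shCTR points of a column lie above both shPHF8 points, and the gap runs from 10800 bp at the left to 200 bp at the right.

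In these regions, which the rule chose for a gap between the conditions, libraries of 1 condition mostly lay closer together than the conditions did. The gap is set in part by the rule, so the values below do not measure how well replicates agree. The median difference between the covered bp of the shCTR libraries was 600 bp and that between the shPHF8 libraries was 400 bp, and the median gap between the conditions was 2000 bp. The gap exceeded both within-condition differences in 144 of 168 regions (85.7%). Covered bp was equal in both shPHF8 libraries in 35 regions and in both shCTR libraries in 19.

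The ratio of the lower shCTR to the higher shPHF8 covered bp had a median of 1.71. It was at least 2 in 43 regions and at least 3 in 5, and its highest value was 4.18. Many regions lay at the edge of the rule: 48 had a ratio under 1.6, 16 of them exactly 1.5, and 64 further shared regions lay between 1.4 and 1.5. Just inside were regions nearest to the start sites of Mcm6 (2200, 1800, 1200 and 1200 bp in shCTR 1 and 2 and shPHF8 1 and 2), Aipl1 (5400, 5600, 2200 and 3600 bp) and Mrm1 (3400, 3000, 2000 and 2000 bp), all at 1.5. Just outside were regions nearest to Zdbf2 (ratio 1.49), Gm6657 and Tnpo3 (both 1.48).

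Nearly every shrinking region kept a stretch that all libraries covered. The rule requires fewer covered bp in shPHF8, and merging joins overlapping peaks, so narrowing with some overlap is largely built in. Peaks of both shPHF8 libraries overlapped each other in 164 regions (97.6%, 95% Wilson interval 94.0 to 99.1), and 163 held a stretch that all 4 libraries covered, with a median over all 168 of 1800 bp. The stretch given up, covered in both shCTR and in neither shPHF8 library, also had a median of 1800 bp. In 124 regions (73.8%, 66.7 to 79.9) at least 80% of it lay on 1 side of the remaining shPHF8 peaks, on the left in 67 and on the right in 57. Both edges drew back in 27 regions, at least 50% of the stretch lay inside the span of the shPHF8 peaks in 8, and 1 was mixed. The remaining 8 had no base that both shCTR and neither shPHF8 library covered. Spreading regions grew on 1 side in 61.2% (59.4 to 63.0). Peaks of both shCTR libraries overlapped each other in 95.7% of spreading regions, and 94.3% held a stretch that all 4 libraries covered, close to the shares in shrinking regions. In 29 shrinking regions a shPHF8 peak also covered bases outside both shCTR libraries.

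A single peak per region was more frequent in shPHF8, where the rule requires fewer covered bp, so this is not a separate finding. In shPHF8, 166 and 154 of the 168 regions held a single peak in replicates 1 and 2, compared with 121 and 119 in shCTR. Of spreading regions, 91.02 and 82% held a single peak in shPHF8, and 87.47 and 87.65% in shCTR. The side of the retreat had no shared orientation to genes. Among 74 one-sided regions over protein-coding genes of 1 strand, the edge that drew back lay towards the gene's start in 36 and towards its end in 38.

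**Figure D2:**
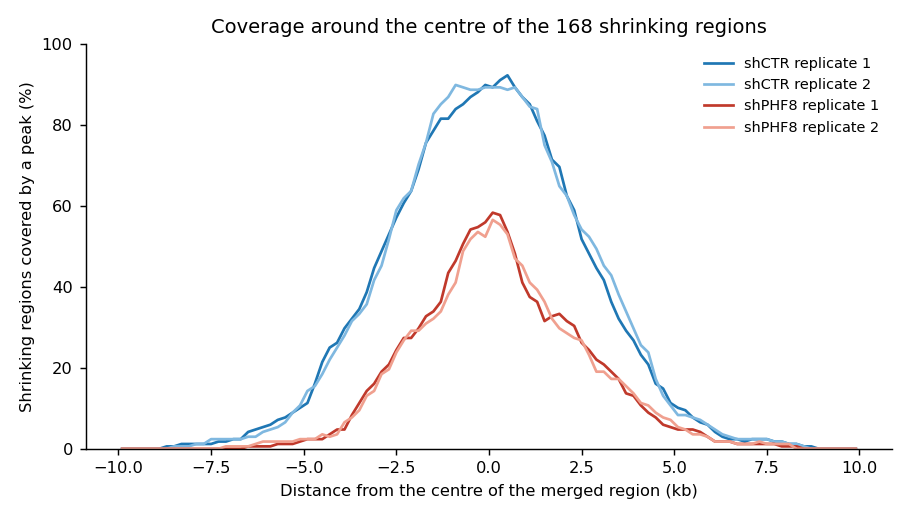
Lines give the percentage of the 168 shrinking regions covered by a peak of each library at each distance (kb) from the centre of the merged region. The 2 shCTR lines run together above the 2 shPHF8 lines, and 300 bp left of the centre they stand at 88.1 and 88.7% against 54.8 and 53.6%.

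Shrinking regions overlapped a gene more often than shared regions as a whole. In GENCODE M21, 24 (14.3%, 95% Wilson interval 9.79 to 20.4) lay within 1 kb of a protein-coding start site, against 8.56% of all shared and 7.02% of spreading regions. A further 84 (50.0%, 42.5 to 57.5) overlapped the rest of a protein-coding gene, against 40.2 and 35.2%. Another 19 (11.3%) overlapped only noncoding genes or pseudogenes, against 12 and 14.1%. No gene was overlapped by 41 (24.4%, 18.5 to 31.4), against 39.3 and 43.7%. With all 4 libraries, the intervals of the promoter, gene-body and no-gene shares did not include the values of the 2 comparison sets. Protein-coding exons were overlapped by 28.6% of shrinking, 23.6% of all shared and 21.4% of spreading regions, and 3′ UTRs by 5.36, 8.95 and 8.46%. Intervals cover counting error over regions only, and regions of the same 4 libraries are not replicates. The merged width, which sets how often a region meets a gene, had a median of 6500 bp in shrinking, 6200 bp in spreading and 5400 bp in all shared regions. The promoter share was lower when any 1 library was left out: it was 9.33 to 10.3%, and lowest without shPHF8 replicate 1. Its intervals included 8.56% each time. The share with no gene was then 30.3 to 34.9%, and its interval stayed below 39.3% each time. The 8.56 and 39.3% are those of regions shared by all 4 libraries. Shares of regions shared by only the remaining libraries are not given, so these are unlike sets of regions. By their midpoint, 2.98% (1.28 to 6.78) of shrinking regions lay within 1 kb of a protein-coding start site, against 2.29% of all shared and 1.79% of spreading regions.

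**Figure D3:**
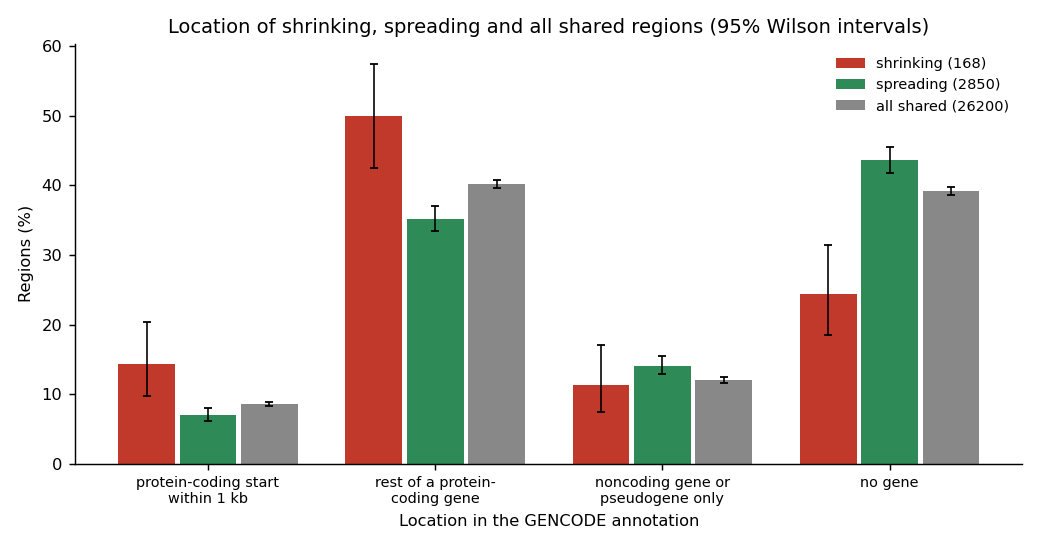
Bars give the percentage of shrinking (168), spreading (2850) and all shared (26200) regions in each of 4 locations, and error bars are 95% Wilson intervals. The shrinking bar is above the others within 1 kb of protein-coding starts (14.3%) and in gene bodies (50.0%), and below them where no gene is overlapped (24.4%).

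At the 24 promoters, peaks drew back from the nearest start site itself in only a few cases. Start sites are those of any protein-coding transcript, so some lie inside the gene. The annotated gene reached farther upstream at Lpo, to 87828289, at Rab3b, to 108879063, and at others such as Ccdc73. The nearest start site lay inside a peak of both shCTR libraries and of neither shPHF8 library at 4 genes, Lpo, Ccdc60, Gas6 and Rab3b. It was covered in all 4 libraries at Dlk1, Mkrn3 and Sh2b3, in a single shCTR library at 6 genes, and in no library at 11, where the region ended up to 955 bp from the start. Where several start sites lay inside a region, the first by position was taken, and the others could differ. Cbln2, among the 6, had 4 start sites inside its region. The shCTR libraries covered 2 and 4 of them, and the shPHF8 libraries 3 and 2.

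At Lpo the region had 12600 and 12000 covered bp in shCTR (replicates 1 and 2, the order used throughout) and 5000 and 4600 in shPHF8. Peaks of both shCTR libraries ran across the start site at position 87826113, whereas the nearest shPHF8 peaks began 7113 and 5113 bp downstream of it. Ccdc60 had 12600 and 12800 bp in shCTR and 6400 and 4800 bp in shPHF8. There the shPHF8 peaks stayed upstream and ended 3038 and 5038 bp before the start site. Gas6, the ligand of the TAM receptor kinases TYRO3, AXL and MERTK, had 6000 and 6200 bp in shCTR and 3200 bp in both shPHF8 libraries. Its shPHF8 peaks lay within the gene and began 490 and 290 bp downstream of the start. At Rab3b, a small GTPase of synaptic vesicles, covered bp was 2800 and 3000 in shCTR and 1200 and 1000 in shPHF8. The 2 conditions did not overlap at any of these genes, which the rule requires.

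B9d1 had 10200 and 9600 bp in shCTR and 3200 and 2600 bp in shPHF8. Peaks of both shCTR libraries came up to its start, 1 reaching 256 bp beyond it and the other ending 144 bp before it, and the shPHF8 peaks ended 5944 and 5744 bp upstream. Fam184b had 6000 and 6400 bp against 1600 and 1200 bp, the second highest ratio at 3.75. Pdlim4, a PDZ and LIM domain protein that binds actin-associated proteins, had 7200 and 6800 bp in shCTR and 2200 and 3400 bp in shPHF8. The start site of B9d1 and of Fam184b lay in a peak of 1 shCTR library, as did the first of 2 at Pdlim4. The other Pdlim4 start site lay in peaks of both shCTR libraries and of neither shPHF8 library.

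Regions that stopped short of a start site in every library included that at Igf2bp3, which encodes an RNA-binding protein of fetal tissue. It lay 444 bp upstream and had 11400 and 12000 bp in shCTR and 6600 and 6200 bp in shPHF8. Mipol1 (7200 and 9800 bp against 3600 and 3200 bp) and Ccdc73 (6400 and 7800 bp against 2800 and 4200 bp) followed. Disc1, a scaffold protein of neuronal progenitors and synapses, had 4400 and 3400 bp against 1400 and 1000 bp. Adra1a, the alpha-1A adrenergic receptor, had 3800 and 4000 bp against 1800 bp in both shPHF8 libraries.

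**Figure D4:**
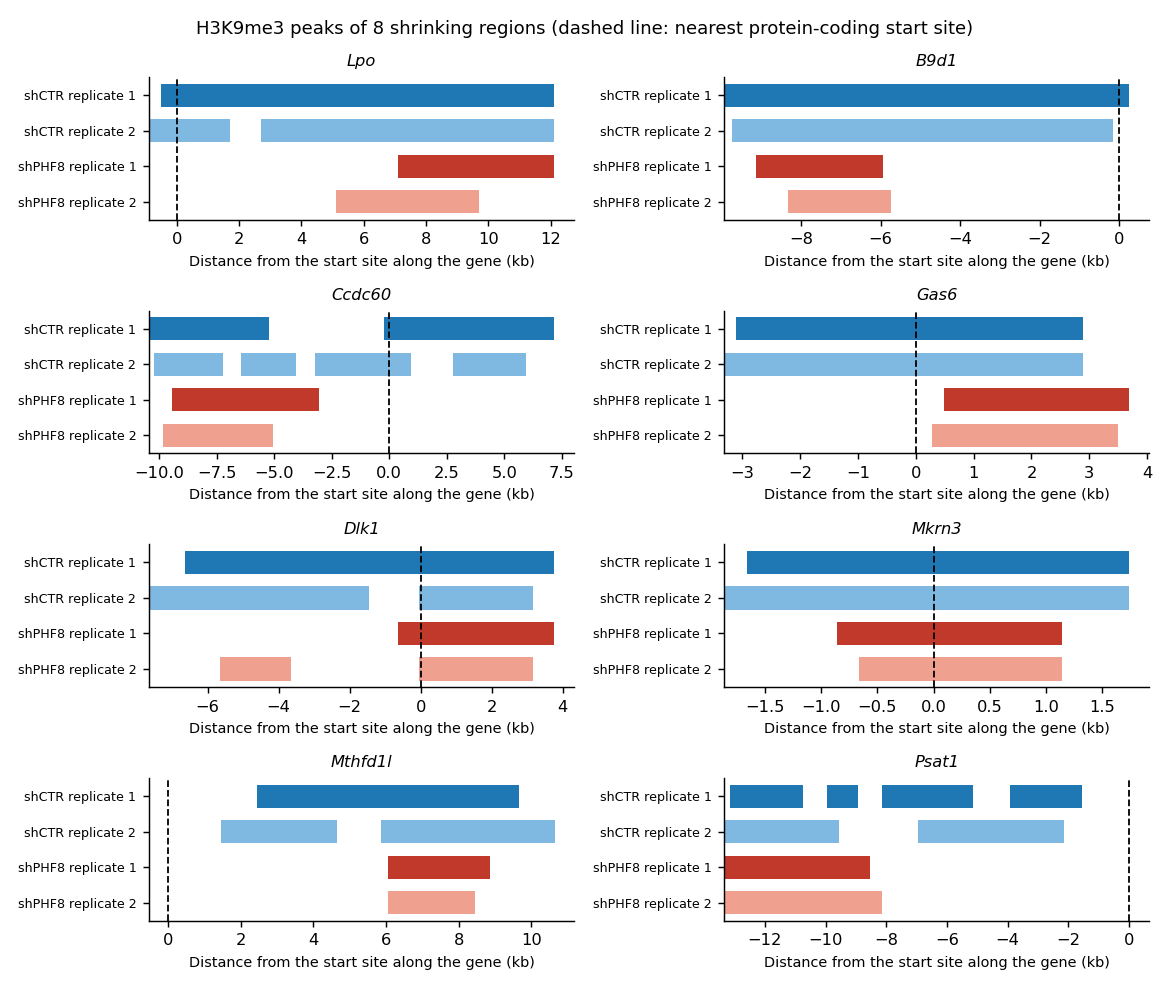
Bars are the H3K9me3 peaks of each library in 8 shrinking regions, plotted by distance (kb) from the nearest protein-coding start site along the gene's strand, which the dashed line marks. Both shCTR libraries cover the start of Lpo, Ccdc60 and Gas6 and no shPHF8 peak does, all 4 libraries cover the start of Dlk1 and Mkrn3, and no peak reaches that of Mthfd1l or Psat1.

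Both genes with regions from the imprinted list kept H3K9me3 at the start. The list held 45 imprinted genes, which are expressed from 1 parental allele, and 33 of them had a shared region over the gene or within 3 kb, 2 a shrinking and 4 a spreading one. At Dlk1, a paternally expressed gene for a Notch-like transmembrane protein, the region at chr12:109445201-109456600 had 10400 and 9400 bp in shCTR and 4400 and 5200 bp in shPHF8. The stretch from 48 bp upstream to 3151 bp downstream of the start lay in peaks of all 4 libraries, and the loss was upstream. At Mkrn3, a paternally expressed ubiquitin ligase gene, the region at chr7:62418401-62422000 had 3400 and 3600 bp in shCTR and 2000 and 1800 bp in shPHF8. It narrowed on both sides of the start. Covered bp is summed over both alleles, and the peak lists do not separate them.

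Enzymes of serine and one-carbon metabolism were a question of the study, since serine made from 3-phosphoglycerate by PHGDH, PSAT1 and PSPH feeds the folate cycle. Of 30 such genes, 12 had a shared region over the gene or within 3 kb, 2 of them a shrinking and 1 a spreading one. Over all protein-coding genes, 111 of the 7308 with a shared region had a shrinking one (1.52%) and 1212 a spreading one (16.6%). The lists are small and were set up with earlier results known, so nothing is read from these counts.

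Psat1 encodes phosphoserine aminotransferase. Its region at chr19:15926601-15938400 had 8800 and 8600 bp in shCTR and 4800 and 5200 bp in shPHF8, a ratio of 1.65. It lay 1542 bp upstream of the nearest protein-coding start site, at 15925059. It overlapped no protein-coding exon but lay inside the annotated gene, which extends to 15947337. The edge nearest to that start drew back. The closest peaks were 1542 and 2142 bp from it in shCTR and 8542 and 8142 bp in shPHF8. Farther upstream, 2800 bp were covered in all 4 libraries, and shPHF8 peaks also covered 800 bp that neither shCTR library covered. Psat1 had 3 shared regions in all, and neither of the others was shrinking or spreading. Phgdh and Psph had no shared region over the gene or within 3 kb, and the nearest shrinking regions were 7.91 and 7.94 Mb away. The study viewed signal tracks at the promoters of Phgdh, Psat1 and Psph and reported unaltered H3K9me3 there after PHF8 depletion. Its measure was signal at promoters, whereas the values here are peak calls.

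Mthfd1l encodes the mitochondrial enzyme that releases formate from formyl-tetrahydrofolate. Its region at chr10:3974601-3983800 began 1457 bp downstream of the start and had 7200 and 8000 bp in shCTR and 2800 and 2400 bp in shPHF8, a ratio of 2.57. Both shPHF8 peaks began 6057 bp downstream of the start, inside the span of the shCTR peaks, so both edges drew back.

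Of 66 genes of synaptic receptors and adhesion molecules, 44 had a shared region, 3 a shrinking and 13 a spreading one. Grm5, the metabotropic glutamate receptor mGluR5, held 2 shrinking regions in introns. One had 8000 and 7000 bp in shCTR and 3800 and 3200 bp in shPHF8, and the other 8200 and 7600 bp and 4600 and 2800 bp. Opcml, a GPI-anchored adhesion molecule, had 4400 bp in both shCTR libraries and 2600 and 2400 bp in shPHF8, and it also held a spreading region. In the axon guidance list, 1 of 33 genes with a shared region had a shrinking one, the repellent ligand gene Sema3a (3800 and 3400 bp against 2000 and 2200 bp), and 4 had a spreading one.

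Other lists held few or no shrinking regions. The share over all protein-coding genes with a shared region was only 1.52%, so an empty small list is not read as a result about its genes. Among 216 Zfp zinc finger genes with a shared region, 1 had a shrinking one, Zfp462 (6000 and 7400 bp against 4000 and 3800 bp), and 31 a spreading one. None of the 45 alpha, beta and gamma protocadherins with a shared region had a shrinking one, and 35 had a spreading one. These are counts of genes, and a region over or near several clustered genes counts for each of them. The number with a shrinking region was also 0 for amino acid transport (of 23 genes with a shared region), neurogenic transcription factors (of 32), germline genes (of 29), DNA replication and cell cycle (of 13), autophagy and lysosome (of 7) and heterochromatin regulators (of 14). It was 0 of 67 olfactory receptors, 10 Vmn1r and 10 Vmn2r vomeronasal receptors, 9 Serpin and 34 Cyp genes, and no Hox gene had a shared region.

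Away from promoters, 5 of the 8 largest losses inside protein-coding genes overlapped no protein-coding exon. Tmem131l had 7600 and 9000 bp in shCTR and 2200 bp in both shPHF8 libraries, a ratio of 3.45. Chn2, a Rac GTPase-activating protein, had 9600 and 9000 bp against 2200 and 4200 bp. Prag1, a pseudokinase scaffold, had 6800 and 6600 bp against 2000 and 1600 bp in a region that overlapped an exon. Hydin, a protein of the central pair of motile cilia, had 14200 and 13000 bp against 7600 and 8400 bp. Of the 3400 bp that both shCTR and neither shPHF8 library covered there, 2200 lay inside the span of the shPHF8 peaks, and shPHF8 replicate 1 held a single peak. At all 4 genes the less covered shCTR library exceeded the more covered shPHF8 library by at least 4600 bp.

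Creb5, a bZIP transcription factor, had 11800 and 16200 bp in shCTR and 7600 and 2200 bp in shPHF8, so that the libraries within each condition differed by more than the 4200 bp between the conditions. The second region of Adra1a had 11800 and 10800 bp against 4200 and 6800 bp. Zeb1, a zinc finger repressor of epithelial genes, had 10000 and 11000 bp against 5800 and 6000 bp. Mdga2, which binds neuroligins, had 5000 and 3000 bp against 1200 and 800 bp, so that its shCTR libraries were farther apart than its gap of 1800 bp.

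The region distal to Gfra2 had 15200 and 14200 bp in shCTR and 3400 and 2600 bp in shPHF8, a loss of 10800 bp and the highest ratio of all (4.18). In shCTR its peaks spanned the region, and in both shPHF8 libraries a single peak remained at the right end. A second shrinking region lay 3.8 kb to its left, with 7600 and 7800 bp against 2200 and 3600 bp. Over Pvt1, a long noncoding RNA gene next to Myc, 3 shrinking regions were found. The one with the largest loss had 8000 and 8600 bp in shCTR and 3400 and 2000 bp in shPHF8. The others had 8000 and 8800 bp against 4400 and 3400 bp, and 6800 and 6400 bp against 4200 and 3200 bp. A region far from any start, 171794 bp from that of Wdr11, had 4200 and 5200 bp against 1600 and 1200 bp, with a ratio of 2.62.

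Single further genes are given here as examples that were chosen after their values were seen, and they stand for no group. Ptprz1, a receptor tyrosine phosphatase of radial glia, had 11200 and 9400 bp in shCTR and 6000 and 5400 bp in shPHF8, 2824 bp from a start site. The related Ptprg had 6600 and 7400 bp against 3000 bp in both shPHF8 libraries. Cdh2 (N-cadherin, the junctional cadherin of the neuroepithelium) had 10800 and 7400 bp against 3600 and 3800 bp. Fyn, a Src-family kinase, had 6200 and 9400 bp against 3400 and 2600 bp. Its shCTR libraries differed by more than the gap of 2800 bp, and its shPHF8 peaks did not overlap each other. Lrp6, a Wnt co-receptor, had 5800 bp in both shCTR libraries against 2200 and 3600 bp, and Srgap2, a regulator of membrane protrusion in migrating neurons, had 5600 and 6400 bp against 2800 and 2200 bp.

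More examples, chosen in the same way, were genes of other kinds. Npas3, a bHLH-PAS factor, had 7000 and 7400 bp in shCTR and 4400 and 4000 bp in shPHF8. Egr2, a zinc finger factor of the hindbrain and myelin, had 4000 and 4400 bp against 1600 and 2400 bp. Its region lay 118 bp from an annotated start site inside the gene. Jmjd1c, a gene of the Jumonji family to which PHF8 also belongs, had 3600 and 3800 bp against 2000 bp in both shPHF8 libraries. The potassium channel gene Kcna1 had 4800 and 7800 bp against 3000 and 2600 bp, and the calcium channel gene Cacna1c had 5400 and 5000 bp against 3200 and 2800 bp. Among these 5 genes the shCTR libraries differed most at Kcna1, by more than the gap between the conditions.

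Examples among the 41 regions that overlapped no gene were also chosen after their values were seen. The region 23890 bp from the start of the chemokine receptor gene Cxcr4 had 9200 and 8000 bp in shCTR and 3800 and 2000 bp in shPHF8, in peaks that did not overlap each other. The one 91740 bp from the start of the integrin gene Itga6 had 9800 and 9400 bp against 5200 and 5400 bp. A pair of regions lay 59570 and 88970 bp from the start of the chromatin remodeller gene Chd7, with 7200 and 11200 bp against 2800 and 4000 bp, and 2400 and 3400 bp against 1200 bp in both shPHF8 libraries. Over all 168, the median distance to the nearest protein-coding start site was 22.7 kb (95% interval 16.2 to 30.1), compared with 29.9 kb for all shared and 37.3 kb for spreading regions.

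Several genes held more than 1 shrinking region. The regions overlapped 100 protein-coding genes, of which 7 held at least 2, namely Adra1a, Ccdc60, Ccdc73, Grm5, Maml2, Rab3b and, with 3, Magi1. Another shrinking region lay within 100 kb of 22 of the 168 (13.1%, 95% Wilson interval 8.81 to 19.03), in 11 pairs, compared with 2.97% of all shared and 1.68% of spreading regions. Both regions of the pair lay in the same protein-coding gene in 6 of the 11. At Maml2, a Notch coactivator, regions 5 kb apart had 8600 and 9000 bp against 5400 and 5000 bp, and 7600 and 7800 bp against 3400 and 4800 bp. At Magi1, a scaffold of cell junctions, regions 7.8 kb apart had 11600 and 8800 bp against 4200 and 4800 bp, and 9000 and 8400 bp against 5200 and 5600 bp.

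Other kinds of region were also unevenly spread around them. A lost region, with peaks of both shCTR and of neither shPHF8 library, lay within 100 kb of 96 shrinking regions (57.1%, 49.6 to 64.4), against 36.6% of all shared and 28.7% of spreading regions. A gained region, the opposite case, lay within 100 kb of 18.5% (13.3 to 25.0), against 29.3 and 37.6%. Spreading regions were near 23.8% (18 to 30.8), against 33.9 and 37.9%. Shared regions of 20 kb or more were near 6.55%, against 10.2 and 10.7%. All of these kinds were defined from the same 4 peak lists as the rule, so the shares describe how calls of 1 direction lie together and are not separate evidence.

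**Figure D5:**
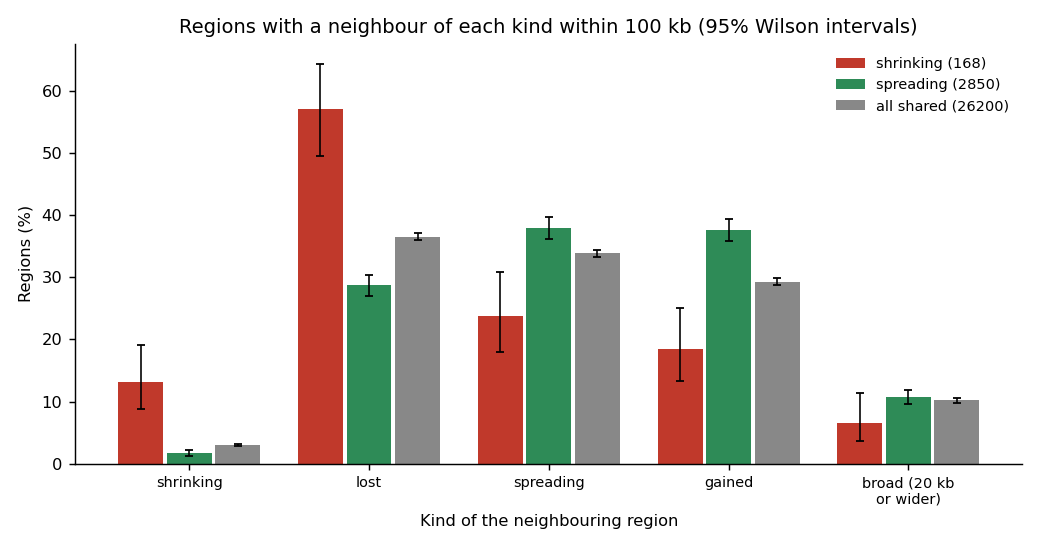
Bars give the percentage of shrinking, spreading and all shared regions with a neighbour of each kind within 100 kb, and error bars are 95% Wilson intervals. Shrinking regions most often have a lost region nearby (57.1%), whereas spreading regions have spreading (37.9%) or gained (37.6%) ones.

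Shrinking regions were found on each of chromosomes 1 to 19. Chromosome 6 held the most, 18 of 1468 shared regions (1.23%), and chromosome 15 had the lowest share, 3 of 1070 (0.280%). On the X chromosome, which the rule leaves out, 0 of 69 shared regions would have passed it, and 4 would have passed the mirror rule. The shares on chromosomes 1 to 19 were 0.641% and 10.9%, so the 0 is not read as a result about the X chromosome.

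Base composition was close to that of the other shared regions, and the repeat content was lower. The median GC content was 45.1% (95% interval 44.0 to 46.1) in shrinking regions and 44.9% in both all shared and spreading regions. CpG dinucleotides occurred at a median of 0.198 of the number expected from base composition, against 0.199 in all shared and 0.198 in spreading regions. The soft-masked share, the bases marked as repeats in the reference, had a median of 23.0% (20.3 to 25.7), against 27.7 and 28.6%. It ran from 7.43% to 100% among the 168.

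Within the regions, the kept stretches (327 kb in all) had a GC content of 45.9% and 12.6 CpG per kb, and the given-up stretches (328 kb) had 44.7% and 10.5 CpG per kb. GC content was higher in the kept stretch in 92 of the 155 regions with both, CpG frequency in 85 and the soft-masked share in 80. These are 59.4, 54.8 and 51.6% of the regions with both stretches. Spreading regions differed in the same direction. Their stretches covered in all 4 libraries had a GC content of 45.9% and 11.7 CpG per kb. Those covered in both shPHF8 and neither shCTR library had 45.0% and 10.4 CpG per kb.

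Letters matching 2 DNA-binding factors were counted on both strands. The palindrome of NFI factors, TTGGC and GCCAA with 5 bases of any kind between, occurred in the central 2 kb of 0 of 168 shrinking regions (upper bound 2.23%), and in 0.164% of all shared regions. It was not absent from whole shrinking regions: its rate was 3.06 per megabase in kept and 0 in given-up stretches, against 0.842 in all shared regions. The kept stretches sum to only 327 kb, so nothing is read from that rate. A core of the CTCF motif, CCA, 2 bases of any kind, AGG, 1 of any kind and GGC, occurred in 6 shrinking regions (3.57%, 1.65 to 7.57) and in 3.10% of all shared regions. The CTCF letters occurred 7 times in kept stretches, or 21.4 per megabase (95% Poisson interval 8.60 to 44.1), and 4 times in given-up stretches, or 12.2 per megabase (3.32 to 31.2). These intervals overlap, and both include the 14.3 per megabase of all shared regions. These are matches of letters in the reference and no record of binding.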

How the data were processed

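H3K9me3 ChIP-seq of NSCs was analysed in 4 libraries, 2 of shCTR and 2 of shPHF8, grouped by their titles. The authors aligned reads to mm10 with SOAPaligner/SOAP2, called broad peaks per library with SICER2 and deposited 1 list of peak positions for each. The submitters' processing notes also name Bowtie2 2.3.5.1 and SAMtools 1.9 without a role. Window, gap, threshold and use of the input were not given in the sources used here, and the positions carry no score, depth or height. All peaks began and ended on a grid of 200 bp.

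Starts were read as 0-based, ends as inclusive, and positions are given 1-based. Peaks that overlapped or touched were merged, and covered bp counted, in Python (3.11.15), numpy (2.4.6) and scipy (1.17.1). On simulated peaks, both steps gave the same output as bedtools 2.31.1. Locations used GENCODE M21 and sequences GRCm38.p6, the same assembly. Shares carry Wilson intervals and medians order-statistic intervals (95%). They reflect counting error over regions and not the spread between libraries. No test was run, since covered bp chose the regions. The lists do not show depth, and the study's read totals per library were not used.

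Named regions were the 8 with the most bp lost, the 8 with the highest ratio, the 12 promoters and the 8 gene bodies with the most bp lost, 3 on each side of the threshold, members at genes of 10 lists and 8 families, Phgdh, Psat1 and Psph. A gene counted with a region over it or within 3 kb. One gene of the lists is not reported by name here. Members, lists and tests were chosen with earlier results of these data known. The alternatives were other ratios, widths and merging, peaks of at least 1 kb, covered bp scaled to the same total, the replicate number as a block, each library left out and other promoter definitions. CTCF counts carry exact Poisson intervals. The X chromosome count was added after seeing the data. The inputs were not used.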

Additional observations from a re-analysis of the deposited data

How the results depend on the processing

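The number of shrinking regions, 168, moved with the threshold and the libraries. It was 417 at a ratio threshold halfway between 1 and 1.5, 43 at a threshold of 2, 1320 at any ratio above 1 and 737 with covered bp scaled to the same total per library, where spreading regions fell from 2850 to 976. With a replicate block, which compares libraries 1 and 2 within their own number, it was 259. The block is no pairing from the design: over 81921 bins of 10 kb, deviations of same-numbered libraries from their condition means had a correlation of -0.0075.

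Leaving out 1 library at a time gave 477 to 1629 regions (515 and 477 without shCTR 1 or 2, 1629 and 501 without shPHF8 1 or 2). It gave 9.33 to 10.3% at protein-coding promoters, 30.3 to 34.9% that overlapped no gene and a median soft-masked share of 24.1 to 26.0%. The intervals of the promoter shares included 8.56%, the share among regions shared by all 4 libraries, which is an unlike set of regions. Within 3 kb of a protein-coding start site lay 23.2%, and 2.98% had their midpoint within 1 kb.

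The other 58 values under alternatives that kept all libraries, and 15 that left 1 out, moved by less than their interval or, for counts, by less than 1.5 times. Shares in gene bodies, GC content and the share in which both shPHF8 libraries overlapped were among these under every alternative run. The lists hold calls without depth or signal, so a stretch that stayed enriched below the peak threshold cannot be told from one that lost H3K9me3.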
